A study of Mus musculus with 12 samples.

Results

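Hearts of embryos lacking *Hira* in the cardiogenic mesoderm were compared with control hearts at embryonic day E11.5 across all measured genes, by RNA-seq with reads counted per gene. The E11.5 hearts make up 6 of the 12 samples of the series, 3 control and 3 mutant, and were selected by the stage and genotype in their labels. The other 6 are control and mutant hearts of the same genotypes at E12.5, used here only where the E11.5 values are set beside them. Controls were Mesp1Cre;Hira+/fl, carrying the Cre driver and 1 conditional allele beside a wild-type allele, and mutants were Mesp1Cre;Hira-/fl, in which the conditional allele stands beside a constitutive null allele. Both groups therefore carry Mesp1Cre and a floxed *Hira* allele, and the mice were kept on a CD1-ICR background. Mesp1Cre acts in the mesoderm that gives rise to the heart, so cells of other origin in the heart, such as neural crest cells, can keep *Hira*. The replicates are separate samples by their labels, and nothing says whether they came from separate litters, so p-values measure the spread between these samples, which may be partly technical.

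HIRA is a histone chaperone. With UBN1, CABIN1 and ASF1A it places the histone variant H3.3 into chromatin outside of DNA replication, at genes, promoters and enhancers. At E11.5 the mouse heart has looped and beats. Its endocardial cushions are being filled by mesenchyme that arises from the endocardium, the epicardium has spread over the surface, and yolk-sac-derived macrophages have begun to settle in the tissue.

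The hearts held between 11994148 and 16771200 counts, the lowest in mutant 3. Levels are given in CPM, counts scaled for library size with edgeR's TMM factors, and in RPKM, which also divides by gene length, where different genes are compared. The cardiomyocyte genes that define heart tissue were abundant in all 6 hearts: *Tnnt2*, cardiac troponin T, ran from 2689 to 4015 CPM and *Actc1*, cardiac actin, from 4289 to 5580.2 CPM. On the first principal component, with 36.7% of the variance, control 2 lay with mutants 1 and 2, and mutant 3 lay with controls 1 and 3, so this axis did not follow genotype. On the second component, with 30.7% of the variance, the 3 control hearts (10.5 to 16.9) lay apart from the 3 mutant hearts (-33.3 to -1.96), and mutant 3 lay farthest out. Mutant 3 also had the most genes with a count, 16332 against 15076 to 15664 in the other 5 hearts. By 4 Y-linked genes, with 2524 to 4766 counts in the hearts called male and 1 to 5 in those called female, all 3 control hearts and mutant 3 were male and mutants 1 and 2 were female. Sex thus differs in part with genotype, and a fit with sex as a covariate was made beside the reported one. Since both female hearts are mutants, the genotype term of that fit compares mutant 3 alone with the 3 control hearts. Values given with sex in the fit therefore rest on a single mutant heart, and only their effect sizes are given.

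*Hira* itself, on chromosome 16 from 18877037 to 18970309 (GRCm38), had 1216, 1334 and 977 counts in the control hearts and 1149, 938 and 735 in the mutant hearts. Its level was 76.9 ± 8.70 CPM (SD, n = 3) in controls and 64.1 ± 8.61 CPM in mutants, with overlapping groups (edgeR's quasi-likelihood test: log2 fold change -0.26, SE 0.14, adjusted p = 0.607). The counts cover the whole gene, and the conditional allele loses exon 4 alone, so this value does not check the deletion. Of 17 tested genes of the partners of HIRA and of H3.3 none passed the test, the log2 fold changes ran from -0.26 to 0.30, and their median was 0.05. *Ubn2* (log2 fold change 0.30, SE 0.20), *Asf1b* (0.25, SE 0.16) and *Daxx* (0.19, SE 0.12), a chaperone of H3.3 outside the HIRA complex, had the lowest p besides *Hira*, and *Daxx* was the 1 member whose groups did not overlap. The value of *Ubn2* was -0.16 with sex in the fit. *H3f3a*, one of the genes that encode H3.3 and the most abundant of the list per length, stood at 563, 498 and 647 CPM in controls and 535, 519 and 709 CPM in mutants.

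Across the genome, 12197 genes were tested and 14 changed (adjusted p at most 0.05 and at least 1.5-fold, edgeR's quasi-likelihood test), which is 0.115% of genes tested, 6 of them higher and 8 lower in mutants. With 3 hearts against 3, an exact two-sided permutation test of a single gene cannot go below p = 0.1, and all 14 genes stood at this value because their groups did not overlap. For comparison, groups did not overlap for 8.23% of all genes tested with mutants higher and for 8.18% with mutants lower. The counts of non-overlapping members of every list below are to be read beside these shares. An unadjusted p under 0.05 with mutants lower was found for 5.18% of all genes. The median log2 fold change of all genes was 0.00.

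The count of changed genes depended on single hearts and on the test. It was 0 when control 1, control 3, mutant 1 or mutant 2 was left out, with 961, 748, 1115 and 978 genes at an unadjusted p under 0.05, 8 without control 2 and 15 without mutant 3, and DESeq2 called 248 genes, among them all 14. With sex in the fit all 14 genes kept their direction. The log2 fold changes in that fit were 1.91 for *Sost*, -3.16 for *Msr1*, -2.37 for *Art1* and -1.01 for *Col16a1*. They were 1.54 for *Krt80*, -1.15 for *Serping1*, -2.17 for *Kcnd2* and -2.59 for *C1qb*. Of the genes named here as not passing, *Akr1c13* was at 2.88 in that fit and *Aldh1a2* at -1.69. *Tnni2* was at 2.37, *Foxc2* at 1.24 and *Procr* at 1.25.

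**Figure D1:**
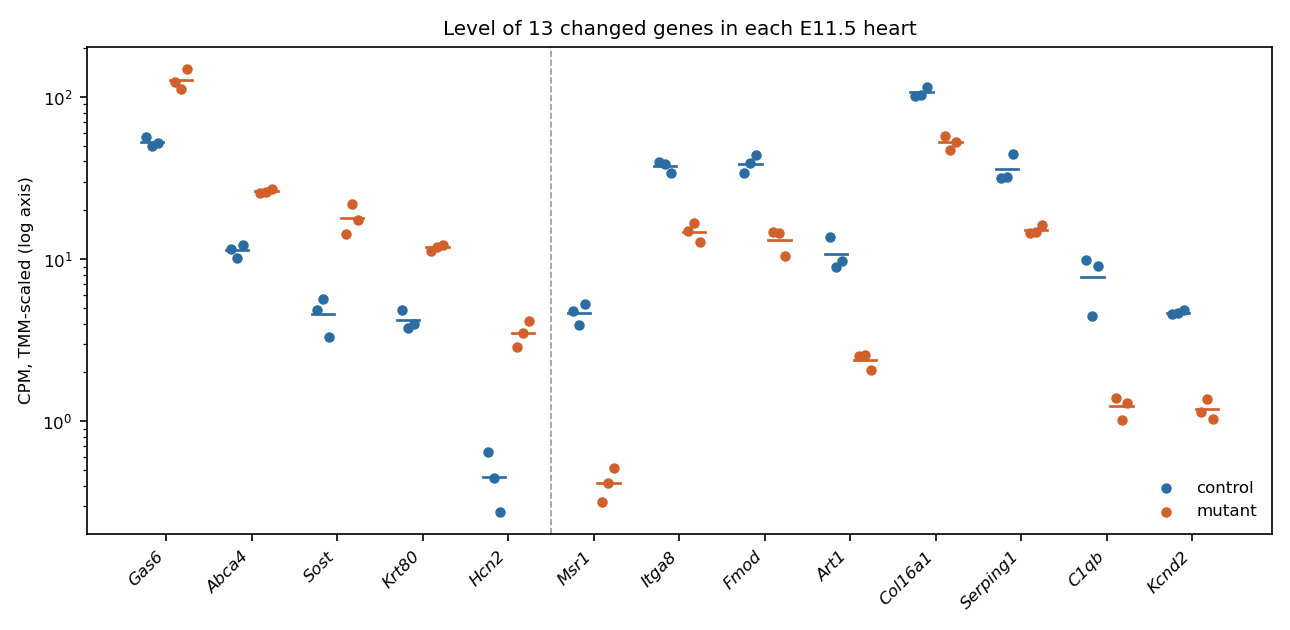
Level of 13 of the 14 changed genes in each E11.5 heart, in TMM-scaled CPM on a log axis. Points are single hearts (3 control in blue, 3 mutant in orange), short lines are group means, and the dashed line separates the 5 genes higher in mutants from the 8 lower. In each gene all 3 mutant hearts lie on one side of all 3 control hearts.

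Ion channel genes were among those that rose and those that fell. *Hcn2*, a pacemaker channel opened by hyperpolarization, on chromosome 10 from 79716634 to 79736108, had 10, 7 and 4 counts in controls and 45, 59 and 48 in mutants. It rose by 2.91 on the log2 scale (SE 0.39, adjusted p = 0.0420, edgeR) from a control level of 0.455 ± 0.185 CPM, and passed the filter on low values through the mutant hearts, since its control level per length was 0.143 RPKM. *Kcnd2*, on chromosome 6 from 21215503 to 21729805, encodes Kv4.2, which carries the transient outward potassium current. Its control hearts lay close together at 4.58, 4.63 and 4.84 CPM, its mutant hearts at 1.14, 1.37 and 1.03 CPM, and it fell by 1.97 on the log2 scale (SE 0.27, adjusted p = 0.0444, edgeR). It passed the filter on low values through the control hearts, with 1.03 RPKM in controls and 0.260 RPKM in mutants.

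Among all 33 tested potassium channel and HCN genes, *Hcn2* and *Kcnd2* were the 2 that passed the test. The median of the list was 0.14 (0.06 without control 3, 0.09 without mutant 2 and 0.24 without control 1 or control 2), with non-overlapping groups for 5 genes higher and 5 lower in mutants. The inward rectifier gene *Kcnj2* (15.2, 14.5 and 13.2 against 21.2, 21.4 and 19.8 CPM, adjusted p = 0.204) and the background potassium channel gene *Kcnk3* (51.0, 42.1 and 46.4 against 62.3, 95.6 and 93.9 CPM, adjusted p = 0.129) had no overlap between groups. *Kcnh2*, which encodes the hERG channel and was the most abundant of the list per length, overlapped (log2 fold change 0.18, SE 0.16). The gap junction genes differed in direction. *Gja4*, a connexin of arterial endothelium, stood at 19.4, 27.4 and 18.4 CPM in controls and 41.2, 66.7 and 63.1 CPM in mutants (log2 fold change 1.39, SE 0.22, adjusted p = 0.0793, edgeR). *Gja1*, the main ventricular connexin, was higher in all mutant hearts (0.58, SE 0.16, adjusted p = 0.211), and *Gja3*, another connexin gene, was lower (-1.92, SE 0.48, adjusted p = 0.183) at under 2 CPM in every heart. *Fxyd1*, phospholemman, a regulator of ion transport in heart muscle, overlapped (-0.23, SE 0.22).

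**Figure D2:**
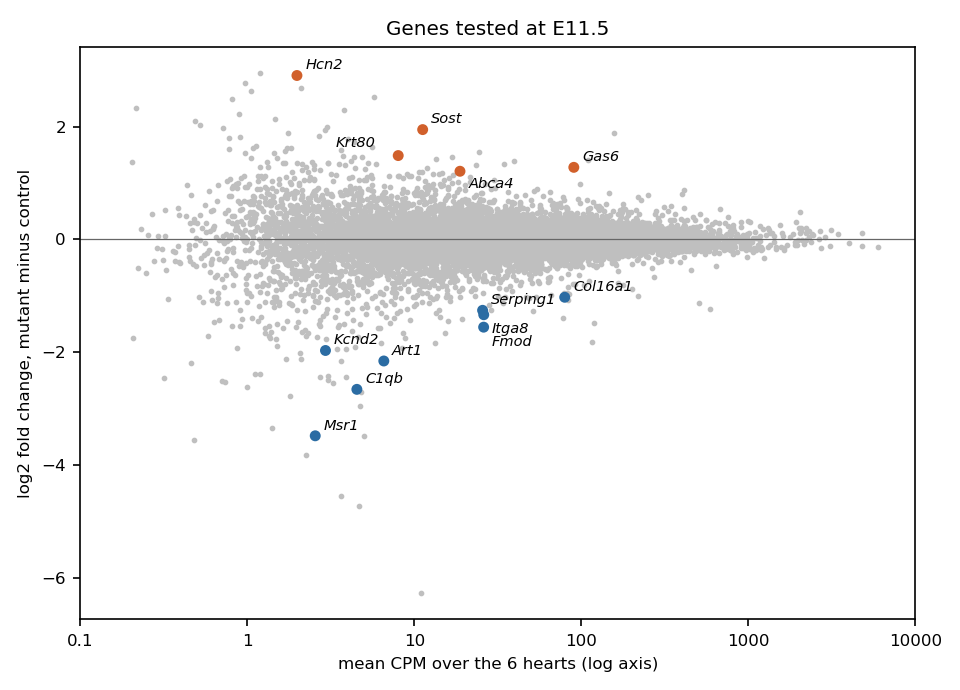
Log2 fold change (mutant minus control) of the genes tested against its mean CPM over the 6 hearts, on a log axis. Of the changed genes 13 are named, in orange where higher and in blue where lower in mutants; the lowest grey point, at -6.27, is *Prap1*, which had 64.0 CPM in control 3 and under 1 CPM in the other 5 hearts.

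Genes of macrophages were low in the mutant hearts. *Msr1*, the macrophage scavenger receptor, on chromosome 8 from 39581685 to 39642673, had the lowest p of all genes. It had 74, 62 and 77 counts in control hearts and 5, 7 and 6 in mutant hearts, or 4.68 ± 0.697 against 0.417 ± 0.0991 CPM (SD, n = 3). It was 11.2-fold lower in mutants (log2 fold change -3.48, SE 0.34, adjusted p = 0.0233, edgeR). It passed the filter on low values through the control hearts, with 1.17 RPKM in controls and 0.104 RPKM in mutants. *C1qb*, a chain of complement C1q that macrophages make, on chromosome 4 from 136880129 to 136886187, was measured at 9.94, 4.44 and 9.05 CPM in controls and 1.40, 1.01 and 1.29 CPM in mutants. It fell by 2.66 on the log2 scale (SE 0.36, adjusted p = 0.0444, edgeR). No mutant heart of either gene reached the lowest control heart.

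The same direction held over most of the list of macrophage and leukocyte genes, of which *Msr1* is not a member. Of its 36 names, 35 were in the tables and 27 were tested. *C1qb* was the 1 member that passed. Groups did not overlap for 18 of the 27, all lower in mutants (66.7%, against 8.18% of all genes), and 21 had an unadjusted p under 0.05, all lower, against 5.18%. The median log2 fold change was -1.44, and it stayed between -1.82 and -1.03 when each heart was left out. With sex in the fit the median was -1.29. DESeq2 called 13 members, all lower, against 136 lower among all 12197 genes tested. *Csf1r*, the receptor for the macrophage growth factor CSF1, stood at 31.7, 12.8 and 18.2 CPM in controls and 7.51, 5.48 and 4.47 CPM in mutants (adjusted p = 0.0957), a member chosen here for its role after its values were seen. *Ctss*, the lysosomal protease cathepsin S, stood at 6.65, 5.40 and 5.73 CPM in controls and 1.59, 0.775 and 1.63 CPM in mutants (adjusted p = 0.0713). The genes *C1qa*, *C1qb* and *C1qc* lie together within 18675 bases. *C1qc* stood at 8.33, 3.17 and 5.25 against 1.08, 0.835 and 0.946 CPM (adjusted p = 0.0793). *Lyz2*, a lysozyme gene of myeloid cells, stood at 48.7, 38.8 and 39.2 against 21.1, 24.6 and 17.6 CPM (adjusted p = 0.0815), with the reservation that it has a near-identical neighbour. *Cd52*, a leukocyte surface antigen outside the list, stood at 0.968, 0.952 and 0.760 against 0.0636, 0.0596 and 0.0860 CPM, or 1 count in each mutant heart (adjusted p = 0.0815). With 1.78 RPKM in controls and 0.139 RPKM in mutants, *Cd52* passed the filter on low values through the control hearts. *Pf4*, a platelet chemokine that early macrophages also make and the most abundant of the list per length, overlapped at 30.02, 25.6 and 50.6 against 17.5, 17.5 and 56.6 CPM (-0.22, SE 0.46).

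In a whole heart, fewer macrophages and less of these RNAs per macrophage cannot be told apart. Levels of the list also varied among control hearts. The median member lay 0.40 above the control mean in control 1, 0.57 below it in control 2 and 0.07 below it in control 3 on the log2(CPM + 0.1) scale, and 1.41, 1.42 and 1.26 below it in mutants 1, 2 and 3. The summed level of the list was 437 to 579 CPM in controls and 322 to 410 CPM in mutants.

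**Figure D3:**
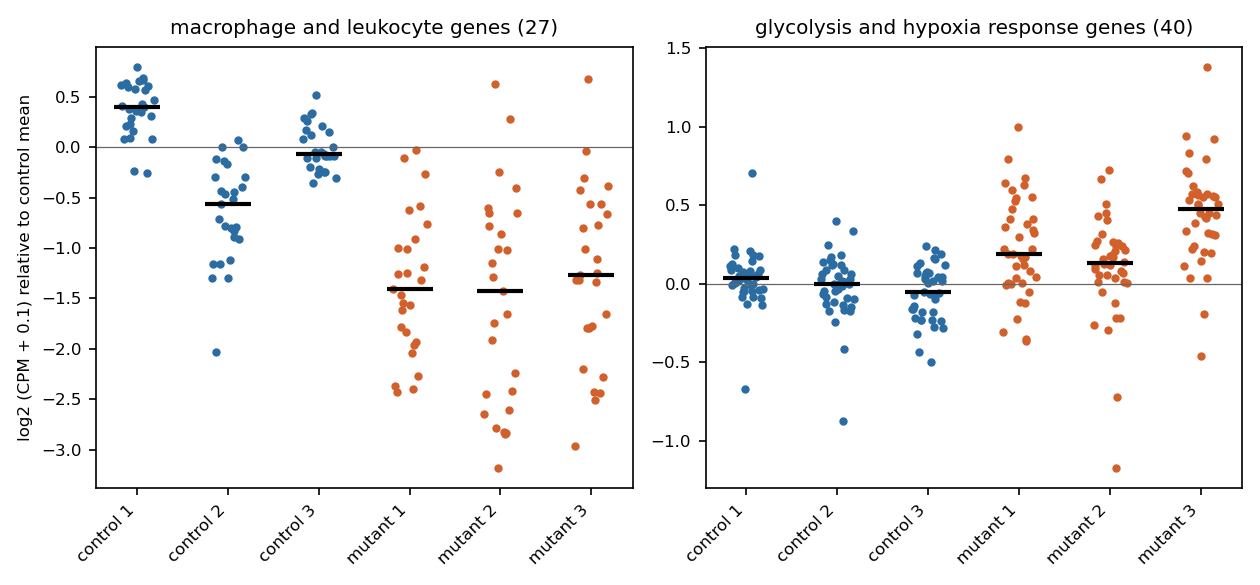
Each tested member of 2 gene lists in each E11.5 heart, as log2(CPM + 0.1) relative to the mean of the control hearts; points are genes, blue in control and orange in mutant hearts, and black bars are medians. Medians of the 27 macrophage and leukocyte genes lie at -1.41, -1.42 and -1.26 in the mutants, and those of the 40 glycolysis and hypoxia genes at 0.19, 0.13 and 0.48.

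*Serping1*, which encodes the C1 inhibitor of the complement cascade, also fell. It lies on chromosome 2 from 84765387 to 84775444 and stood at 31.7, 32.2 and 44.4 CPM in controls and 14.4, 14.7 and 16.3 CPM in mutants (log2 fold change -1.26, SE 0.17, adjusted p = 0.0420, edgeR). It was the 1 gene of 26 complement and coagulation genes to pass. Groups did not overlap for 2 members higher and 5 lower in mutants, and the median was -0.22 (-0.10 without control 3, -0.11 without mutant 2 and -0.09 with sex in the fit). The 2 higher were *Procr*, the endothelial protein C receptor (14.5, 12.1 and 16.2 against 25.2, 27.9 and 34.0 CPM, adjusted p = 0.0815), and *Vwf*, von Willebrand factor (63.5, 64.6 and 52.1 against 105, 240 and 131 CPM, adjusted p = 0.113). *F13a1*, the factor XIII A chain and a gene of tissue macrophages, was lower at 14.6, 4.82 and 7.60 against 2.29, 2.80 and 4.13 CPM (adjusted p = 0.211). *Anxa2*, the most abundant of the list per length, overlapped (-0.22, SE 0.17), and its sign turned with sex in the fit (0.04).

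Of the 8 genes that fell, 2 encode matrix proteins and 1 a receptor for them. *Fmod*, on chromosome 1 from 134037254 to 134048277, encodes fibromodulin, a small leucine-rich proteoglycan that binds collagen fibrils. It was measured at 33.8, 39.0 and 43.6 CPM in controls and 14.6, 14.4 and 10.4 CPM in mutants, a fall by 1.55 on the log2 scale (SE 0.17, adjusted p = 0.0233, edgeR). *Col16a1*, on chromosome 4 from 130047840 to 130099283, encodes a fibril-associated collagen. It stood at 101, 103 and 116 CPM in controls and 57.5, 46.9 and 52.8 CPM in mutants, 2.03-fold lower (log2 fold change -1.02, SE 0.13, adjusted p = 0.0339, edgeR). *Itga8*, on chromosome 2 from 12106632 to 12301922, encodes an integrin alpha subunit, a receptor for nephronectin and fibronectin on mesenchymal and smooth muscle cells. It stood at 39.4, 38.7 and 33.8 CPM in controls and 14.9, 16.6 and 12.7 CPM in mutants, a fall by 1.33 on the log2 scale (SE 0.15, adjusted p = 0.0233, edgeR). The hearts of a group lay close together in all 3 genes beside the gap between groups, a pattern that the test itself selects for.

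The lists of proteoglycan, collagen and matrix glycoprotein genes leaned the same way. For 15 tested hyaluronan and versican matrix genes the median was 0.06 (-0.26 with sex in the fit). Groups of that list did not overlap for 1 gene with mutants higher and 3 with mutants lower. Among 8 tested small leucine-rich proteoglycans *Fmod* passed, 3 had non-overlapping groups with mutants lower and none with mutants higher, and the median was -0.97. *Dcn*, decorin, the most abundant of them per length, stood at 89.8, 120 and 125 against 54.9, 74.0 and 41.7 CPM (adjusted p = 0.151). *Ogn*, osteoglycin, was lower in all mutant hearts (-1.39, SE 0.38, adjusted p = 0.218), and *Lum*, lumican, overlapped (-1.03, SE 0.34). The median proteoglycan gene was -0.65 without control 1 and -0.54 without control 1 and mutant 3. Among 31 collagen chain genes *Col16a1* passed, 8 had non-overlapping groups with mutants lower (25.8%) and 1 with mutants higher, and the median was -0.31. Both chains of collagen VIII, a short-chain collagen of vessel walls and valves, were lower: *Col8a1* at 11.0, 12.8 and 13.95 against 6.36, 5.25 and 4.47 CPM, and *Col8a2* at 26.6, 18.5 and 21.6 against 10.9, 11.3 and 8.95 CPM (adjusted p = 0.0815 for each). *Col6a6* was lower at 5.36, 7.11 and 7.87 against 3.50, 2.62 and 2.58 CPM (adjusted p = 0.131). With 0.908 RPKM in controls and 0.388 RPKM in mutants, *Col6a6* passed the filter on low values through the control hearts. *Col3a1*, the most abundant chain per length, overlapped (-0.32, SE 0.16). The median collagen gene lay 0.07 below the control mean in mutant 1, against 0.59 and 0.54 below it in mutants 2 and 3 on the log2(CPM + 0.1) scale, and the median log2 fold change was -0.53 without mutant 1, -0.10 without control 1 and mutant 3 and -0.54 with sex in the fit.

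Of 42 matrix glycoprotein and matricellular genes none passed the test, while 16 had an unadjusted p under 0.05 with mutants lower (5.18% over all genes). Groups did not overlap for 16 with mutants lower (38.1%) and for 1 with mutants higher, and the median was -0.31 (-0.19 without mutant 3 and -0.49 with sex in the fit). DESeq2 called 7 of them, all lower, against 136 lower among all 12197 genes tested. Among the 4 members of lowest p were 3 laminin chains: *Lama1* at 26.2, 38.9 and 27.9 against 19.3, 15.8 and 10.9 CPM (adjusted p = 0.155), *Lama2* at 35.1, 45.1 and 35.4 against 26.4, 13.5 and 11.6 CPM (adjusted p = 0.175), and *Lamc3* at 7.68, 19.3 and 13.8 against 5.85, 3.70 and 2.41 CPM (adjusted p = 0.152). *Spon2*, spondin 2, was lower as well (-1.27, SE 0.29, adjusted p = 0.152). *Sparc*, the most abundant per length, stood at 1043, 1113 and 1108 against 865, 884 and 873 CPM, a shift of -0.32 (SE 0.12, adjusted p = 0.376) with no overlap. Outside these lists, *Cpz*, a carboxypeptidase of the matrix, was lower at 12.3, 10.9 and 11.5 against 4.01, 5.90 and 4.56 CPM (adjusted p = 0.0815), and *Pcsk6*, the proprotein convertase PACE4, at 53.7, 71.0 and 62.3 against 35.4, 27.6 and 29.7 CPM (adjusted p = 0.0713).

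Cushion mesenchyme genes (29 tested, none passed) had non-overlapping groups for 6 members lower and 1 higher, with a median of -0.35. *Epha3*, a receptor tyrosine kinase of the atrioventricular cushions, stood at 22.7, 19.7 and 17.3 against 11.3, 7.21 and 6.45 CPM (adjusted p = 0.0961). *Aldh1a2*, which makes retinoic acid and is also in the epicardial list, stood at 95.9, 111 and 131 against 61.0, 64.5 and 35.0 CPM (adjusted p = 0.131). *Matn4*, a matrilin, was lower (-2.42, SE 0.63, adjusted p = 0.204), with control 3 at 1.45 CPM close to mutant 1 at 1.27 CPM. *Postn*, periostin, the most abundant of the list per length, overlapped (-0.54, SE 0.28). The hearts differed: the median member lay 1.04 below the control mean in mutant 2 and 0.22 below it in mutant 3, but 0.02 above it in mutant 1, and the median log2 fold change was -0.12 without mutant 2, -0.63 without mutant 1 and -0.22 with sex in the fit.

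Epicardium and mesothelium genes (22 tested, none passed) had non-overlapping groups for 8 members lower (36.4%) and 3 higher, with a median of -0.60 that was -0.39 without control 3 or without mutant 3. *Wt1*, the transcription factor that marks the epicardium, stood at 58.6, 71.3 and 77.3 against 46.9, 43.9 and 33.0 CPM (adjusted p = 0.152). *Tcf21*, a factor of epicardium and its fibroblast progeny, stood at 49.3, 58.4 and 74.7 against 39.2, 34.0 and 39.4 CPM (adjusted p = 0.167). *Upk3b*, a uroplakin of the mesothelium and the most abundant per length, stood at 156, 239 and 279 against 116, 151 and 117 CPM (adjusted p = 0.204). The 3 higher members were *Krt19*, *Krt8* and *Slc9a3r1*. *Krt7*, also a keratin gene, was lower without overlap (log2 fold change -0.64, adjusted p = 0.213, edgeR), and *Krt18* overlapped (0.08). *Krt19* stood at 92.3, 74.9 and 106 against 125, 132 and 176 CPM (adjusted p = 0.213). Another keratin gene, *Krt80*, an epithelial keratin on chromosome 15 from 101347444 to 101370162, did pass the test. It was measured at 4.84, 3.74 and 4.01 CPM in controls and 11.3, 11.9 and 12.2 CPM in mutants, a rise by 1.49 on the log2 scale (SE 0.20, adjusted p = 0.0406, edgeR).

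**Figure D4:**
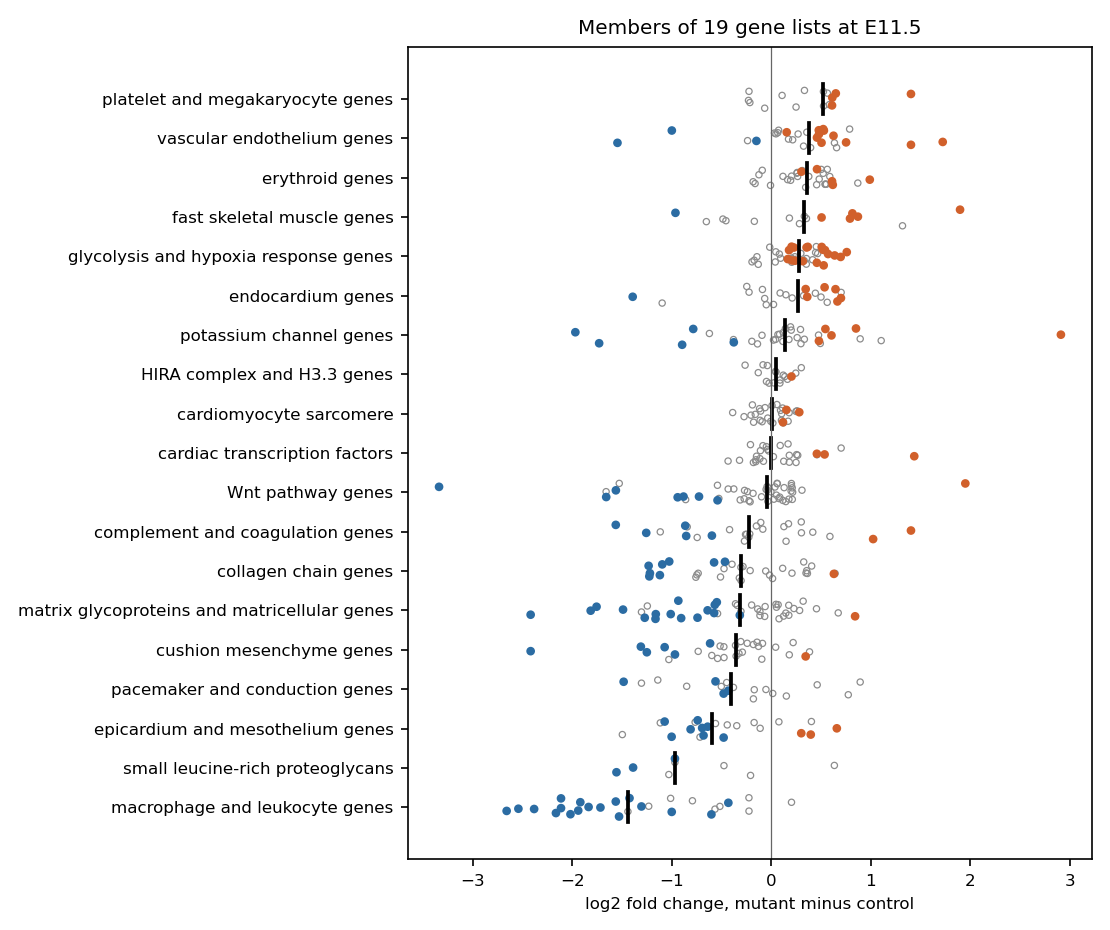
Log2 fold change (mutant minus control) of tested members of 19 gene lists, ordered by the median of all tested members (black bar). Filled points are members whose 3 mutant and 3 control hearts do not overlap, orange where higher and blue where lower in mutants, and open points are members that overlap. Medians run from -1.44 for macrophage and leukocyte genes to 0.52 for platelet and megakaryocyte genes.

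Genes of endothelium lay on the other side. None of 28 tested vascular endothelium genes passed, 11 had non-overlapping groups with mutants higher (39.3%, against 8.23% of all genes) and 3 with mutants lower, and the median was 0.38. *Rasip1*, needed for vessel lumens, stood at 59.8, 69.7 and 44.8 against 88.0, 93.5 and 112 CPM (adjusted p = 0.161). *Etv2*, an early regulator of endothelial and blood fate, stood at 0.904, 2.92 and 2.21 against 5.09, 9.06 and 5.76 CPM (adjusted p = 0.173). *Aplnr*, the apelin receptor, went against the list at 5.36, 3.301 and 6.91 against 2.67, 1.31 and 1.29 CPM (adjusted p = 0.196). *Emcn*, endomucin, the most abundant per length, overlapped (0.05, SE 0.19), so not every endothelial marker was higher.

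Of 22 endocardium genes none passed, 6 had non-overlapping groups with mutants higher and 1 with mutants lower, and the median was 0.27 (0.10 without control 3). *Nfatc1*, the endocardial transcription factor of valve formation, stood at 52.0, 56.2 and 39.9 against 77.9, 72.1 and 90.6 CPM (adjusted p = 0.152). *Adamts19*, a metalloprotease of valves (0.66, SE 0.17, adjusted p = 0.204), *Gata5* (0.54, SE 0.15, adjusted p = 0.241) and *Hapln1*, a hyaluronan link protein of the cushion jelly and the most abundant per length (0.35, SE 0.13, adjusted p = 0.381), were higher in all mutant hearts. *Dlk1* was lower in all of them (-1.39, SE 0.32, adjusted p = 0.160), with control 1 at 163 CPM and the other controls at 82.1 and 91.9 CPM. *Foxc2*, a forkhead factor of vessels and the outflow tract, stood at 17.6, 19.9 and 15.5 against 32.7, 31.2 and 41.7 CPM (adjusted p = 0.0815). *Gas6*, a secreted ligand of the TAM receptors AXL, MERTK and TYRO3, rose. It lies on chromosome 8 from 13465374 to 13494490 and stood at 56.4, 49.6 and 51.7 CPM in controls and 124, 111 and 148 CPM in mutants, 2.43-fold higher (log2 fold change 1.28, SE 0.14, adjusted p = 0.0233, edgeR). The genes of the receptors, *Axl* (0.11, SE 0.13), *Mertk* (-0.21, SE 0.34) and *Tyro3* (0.01, SE 0.14), overlapped between groups.

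Among 16 platelet and megakaryocyte genes 5 had non-overlapping groups, all with mutants higher, and the median was 0.52. This median was 0.84 with sex in the fit and 0.07 without mutant 3, whose median member lay 0.81 above the control mean, against 0.08 and 0.01 in mutants 1 and 2. Besides *Vwf*, *Itgb3* (0.65, SE 0.16, adjusted p = 0.183) and *Nfe2* (0.61, SE 0.21, adjusted p = 0.340) were among its members of lowest p. Among 30 erythroid genes 5 had non-overlapping groups with mutants higher and none with mutants lower, and the median was 0.36, but -0.14 with sex in the fit and 0.56 without mutant 3. The median member lay 0.54 and 0.59 above the control mean in mutants 1 and 2 and 0.14 below it in mutant 3. *Hbb-b1*, adult beta globin, stood at 76.6, 40.7 and 79.9 against 180, 112 and 98.9 CPM (adjusted p = 0.252). *Tal1* (0.46, SE 0.14, adjusted p = 0.259) and *Klf1* (0.62, SE 0.21, adjusted p = 0.336), which are transcription factors of the red cell lineage, were higher in all mutant hearts. *Hbb-y*, embryonic beta-like globin and the most abundant per length, overlapped at 2299, 1890 and 2492 against 2386, 2243 and 2016 CPM. Globin genes have near-identical copies whose reads the counting could split, so the single values are uncertain.

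Genes of glycolysis and of the hypoxia response were a little higher in mutants as a group. Of 40 tested members none passed, 18 had non-overlapping groups with mutants higher (against 8.23% of all genes) and none with mutants lower. The median log2 fold change of 0.28 was small, and it stayed between 0.17, without mutant 3, and 0.32 when each heart was left out, and was 0.48 with sex in the fit. *Slc2a1*, the glucose transporter GLUT1, stood at 517, 599 and 530 against 790, 781 and 821 CPM (log2 fold change 0.54, SE 0.12, adjusted p = 0.152). *Slc2a3*, GLUT3, stood at 93.7, 87.5 and 66.2 against 143, 111 and 147 CPM (adjusted p = 0.173). *Ak4*, a mitochondrial adenylate kinase (0.53, SE 0.11, adjusted p = 0.123), and *Hk2*, a hexokinase gene (0.52, SE 0.15, adjusted p = 0.227), were also higher in all mutant hearts. *Gapdh*, the most abundant of the list per length, overlapped (0.08, SE 0.18).

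In the contractile apparatus, several fast skeletal muscle genes were higher in mutant hearts. Of 28 cardiac sarcomere genes none passed. Groups did not overlap for 3 with mutants higher (10.7%, against 8.23% of all genes) and for none with mutants lower. Their log2 fold changes ran from -0.39 to 0.28, and the median was 0.01. The lowest p in that list were of *Myoz2* (-0.39, SE 0.17), *Trim63* (0.28, SE 0.12), *Lmod2* (-0.20, SE 0.14) and *Tcap* (-0.27, SE 0.19, and 0.15 with sex in the fit). *Myl2*, the ventricular regulatory myosin light chain and the most abundant per length, had 6441 RPKM in controls and 6168 RPKM in mutants. Of 15 tested fast skeletal muscle genes, from 25 in the list, none passed, 5 had non-overlapping groups with mutants higher (33.3%) and 1 with mutants lower, and the median was 0.33. *Tnni2*, fast skeletal troponin I, stood at 44.0, 55.7 and 99.9 against 206, 193 and 344 CPM (log2 fold change 1.90, SE 0.33, adjusted p = 0.0859). *Acta1*, skeletal actin, stood at 348, 284 and 240 against 506, 471 and 556 CPM (adjusted p = 0.106). *Casq1*, the calcium-binding protein of the skeletal sarcoplasmic reticulum, stood at 300.2, 364 and 213 against 447, 675 and 482 CPM (adjusted p = 0.197). *Mybpc1*, slow skeletal myosin-binding protein C, went the other way at 20.1, 23.0 and 19.1 against 12.1, 7.75 and 12.1 CPM (adjusted p = 0.133), and *Eno3*, the most abundant per length, overlapped (0.35, SE 0.16). *Atp2a1* (-0.65), *Ckm* (-0.49), *Actn3* (-0.46) and *Myoz1* (-0.17) were negative with overlapping groups, while 10 of the 15 members were positive. *Lmod3*, a leiomodin that nucleates thin filaments in muscle, was higher at 24.9, 26.8 and 26.9 against 39.4, 50.7 and 50.8 CPM (adjusted p = 0.0815). *Art1*, on chromosome 7 from 102101743 to 102113933, encodes a muscle cell surface ADP-ribosyltransferase and fell. It stood at 13.6, 8.89 and 9.67 CPM in controls and 2.54, 2.56 and 2.06 CPM in mutants, a fall by 2.15 on the log2 scale (SE 0.25, adjusted p = 0.0260, edgeR). *Art5*, a relative on the opposite strand, overlaps it with 17 to 33 counts a heart, against 140 to 211 counts of *Art1* in controls and 24 to 43 in mutants, and was itself at a log2 fold change of 0.02 (SE 0.39).

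Of 28 cardiac transcription factor genes none passed, and the median was -0.00. Groups did not overlap for 3 with mutants higher (10.7%, against 8.23% of all genes) and for none with mutants lower. *Irx6* stood at 7.94, 9.77 and 4.01 against 11.2, 28.3 and 19.4 CPM (log2 fold change 1.44, SE 0.39, adjusted p = 0.213, and 0.0159 by DESeq2), and *Hand1* at 42.9, 43.9 and 26.7 against 48.3, 54.9 and 52.7 CPM (adjusted p = 0.453), each with no overlap, and *Irx5* overlapped (0.70, SE 0.24). *Nkx2-5* (-0.03, SE 0.19), *Gata4* (0.18, SE 0.14) and *Tbx5* (-0.16, SE 0.35) overlapped as well, as did *Hopx*, the most abundant per length (-0.32, SE 0.18). Of 18 pacemaker and conduction genes none passed, 4 had non-overlapping groups, all with mutants lower, and the median was -0.41 (-0.26 without control 1 and -0.22 without control 2). Log2 fold changes were positive for 5 of the 18, among them *Hcn4*, a pacemaker channel (0.89), *Gjd3* (0.77) and *Cacna1d* (0.46), whose groups overlapped. *Slitrk5* (24.0, 28.1 and 22.9 against 16.7, 16.6 and 17.6 CPM, adjusted p = 0.183), *Id2* (223, 216 and 256 against 155, 166 and 195 CPM, adjusted p = 0.286), which is also the most abundant of the list per length, and *Tbx18* (116, 141 and 169 against 112, 113 and 81.2 CPM, adjusted p = 0.384) were lower without overlap, while *Smoc2* overlapped (-1.30, SE 0.36).

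The Wnt pathway held one gene that changed. *Sost*, sclerostin, a secreted inhibitor of Wnt signalling at LRP5 and LRP6, lies on chromosome 11 from 101962458 to 101967015. It rose from 4.84, 5.65 and 3.32 CPM in controls to 14.2, 21.8 and 17.4 CPM in mutants (log2 fold change 1.95, SE 0.25, adjusted p = 0.0406, edgeR). The members of next lowest p were ligands and were lower. *Wnt9a* stood at 7.30, 8.19 and 9.26 against 4.71, 4.59 and 3.53 CPM (adjusted p = 0.160, edgeR). *Wnt5b* stood at 9.56, 14.3 and 11.9 against 6.81, 5.96 and 6.62 CPM (adjusted p = 0.160, edgeR). *Wnt2* stood at 15.2, 7.49 and 5.32 against 2.74, 3.34 and 3.44 CPM (adjusted p = 0.173, edgeR). Unlike *Sost*, no other secreted inhibitor of Wnt signalling in the list passed. *Notum* was at a log2 fold change of -1.66 without overlap (adjusted p = 0.287, edgeR), and *Dkk2* (-1.66) and *Wif1* (-1.53) overlapped. Groups also overlapped for *Sfrp2* (-0.86), *Dkk1* (-0.53), *Frzb* (-0.27), *Dkk3* (-0.18), *Sfrp1* (-0.10) and *Sfrp5* (-0.03). Of 47 tested genes of the pathway 7 had non-overlapping groups with mutants lower (14.9%) and 1, *Sost*, with mutants higher, and the median was -0.04 (-0.12 without control 3 and -0.22 with sex in the fit). *Ctnnb1*, beta-catenin and the most abundant per length, overlapped (0.06, SE 0.13).

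The study's text names 18 genes from an analysis that included these samples, so their direction is no independent evidence. Some were named there as changed, others, such as *Myh6*, *Myh7* and *Lsp1*, as not changed. Besides those above, *Tnnt3*, fast skeletal troponin T, stood at 8.78, 19.6 and 11.7 against 16.7, 47.2 and 36.0 CPM with overlap (adjusted p = 0.257), and *Tnnt1*, slow skeletal troponin T, at 393, 233 and 378 against 201, 160 and 274 CPM with overlap (adjusted p = 0.382). *Slc4a1*, the anion exchanger of red cells, overlapped (0.38, SE 0.25, and -0.29 with sex in the fit), as did *Lsp1* (-0.09, SE 0.16) and the cardiac myosin heavy chain genes *Myh6* (0.25, SE 0.28) and *Myh7* (0.12, SE 0.14). Of the 18 genes, *Abca4* passed the test.

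*Abca4*, a flippase of retinoid lipids known from photoreceptors, on chromosome 3 from 122044443 to 122180123, also rose, from 11.6, 10.1 and 12.3 CPM in controls to 25.7, 25.9 and 26.9 CPM in mutants (log2 fold change 1.21, SE 0.15, adjusted p = 0.0288, edgeR). Further genes of lowest p that did not pass were *Crmp1* (18.6, 25.5 and 14.3 against 52.4, 45.1 and 50.4 CPM) and *Myo3b* (6.52, 6.66 and 6.98 against 14.5, 14.8 and 13.5 CPM), each at adjusted p = 0.0713. The carbonic anhydrase-related gene *Car8* was at 15.3, 13.8 and 11.9 against 24.5, 33.0 and 30.6 CPM, with the same adjusted p. *Akr1c13*, one of a family of similar aldo-keto reductase genes, stood at 1.16, 1.21 and 1.45 against 4.96, 4.59 and 9.38 CPM (adjusted p = 0.0759). *Grik3*, a kainate receptor subunit, was higher with adjusted p = 0.0793, as was *Ass1*, argininosuccinate synthase, with adjusted p = 0.0810. Lower were *Mvp*, the major vault protein (16.7, 15.5 and 17.6 against 7.82, 7.99 and 8.69 CPM, adjusted p = 0.0767), *Fgfr3*, an FGF receptor (13.8, 16.2 and 15.7 against 7.57, 6.08 and 7.57 CPM, adjusted p = 0.0806), and *Cox20*, an assembly factor of cytochrome oxidase (90.3, 73.5 and 99.6 against 42.2, 39.0 and 52.6 CPM, adjusted p = 0.0815).

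At E12.5, in other hearts of the same genotypes, 362 of 12257 genes tested changed (2.95%). Of the 14 genes changed at E11.5, 13 were tested there, all 13 had the same sign, and 9 changed in the same direction. Groups at E12.5 were apart in the same direction for 12 of the 14, *Hcn2* included, which was too low for the test. The 2 that overlapped at E12.5 were *C1qb* and *Serping1*. *C1qb* was at 7.20 ± 2.39 and 6.07 ± 0.908 CPM (log2 fold change -0.25, SE 0.24), and *Msr1* at 4.53 ± 0.900 and 2.60 ± 0.407 CPM (log2 fold change -0.80, SE 0.24). Of the 100 genes of lowest p at E11.5, 96 were tested at E12.5 and 94 of these had the same sign, compared with 61.0% of all genes tested at both stages.

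A test of the difference itself, over all 12 hearts, gave no gene past an adjusted p of 0.05 in edgeR, with 551 of 12270 genes at an unadjusted p under 0.05. DESeq2 gave 43 such genes, and edgeR without mutant 3 of E11.5 gave 10. *Msr1*, *C1qb*, *Col16a1* and *Serping1*, whose falls were smaller at E12.5, had the lowest unadjusted p of the difference among the 14 genes (1.2e-05, 0.00017, 0.00036 and 0.00071), with adjusted p from 0.15 to 0.36. Among lists, the medians of macrophage and leukocyte genes were -1.44 at E11.5 and -0.61 at E12.5, those of glycolysis and hypoxia genes 0.28 and 0.31, and those of epicardium and mesothelium genes -0.60 and 0.34. Erythroid genes had medians of 0.36 and -0.77, and 16 of them passed the test at E12.5, all lower. No test was made of the differences between these medians.

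**Figure D5:**
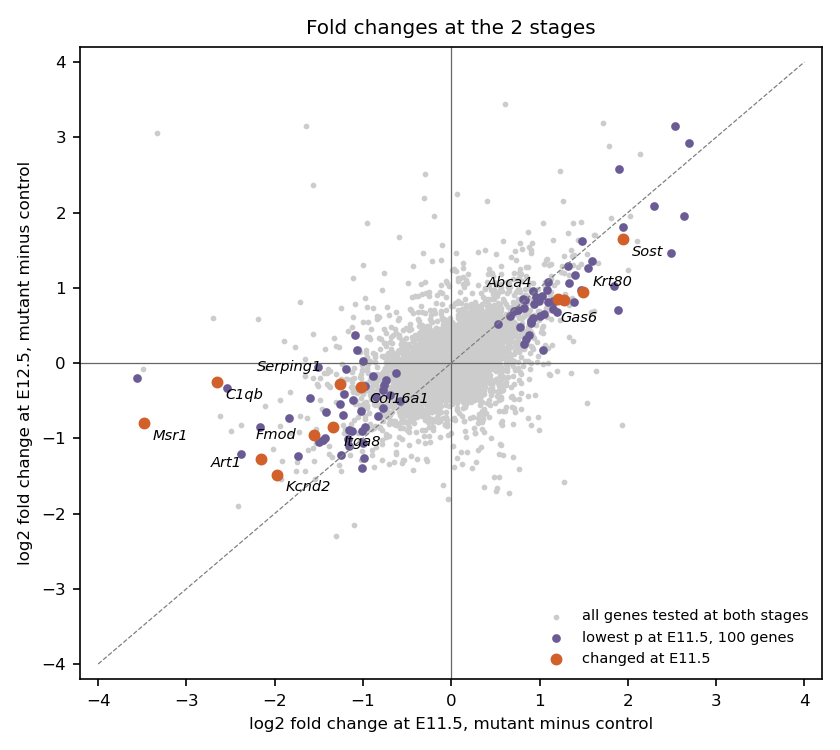
Log2 fold change (mutant minus control) at E12.5 against that at E11.5 for genes tested at both stages, with a dashed line of equality. Grey points are all genes (2 lie outside the axes), violet points the 100 genes of lowest p at E11.5 among those tested at both stages, and orange points 12 of the changed genes, which lie on the same side of 0 at both stages.

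Among further lists, none with a gene that passed, genes of cholesterol synthesis had non-overlapping groups for 6 of 21 with mutants higher and none with mutants lower (median 0.21), and those of heat shock and the unfolded protein response for 8 of 37 and none (median 0.06, between 0.01 and 0.14 when each heart was left out). Hedgehog pathway genes had 2 of 15 higher and 5 lower (median -0.32, and -0.17 without mutant 2). Semaphorin, plexin, SLIT, ROBO and netrin genes had 1 of 39 higher and 9 lower, with a median of -0.14 that was 0.02 without control 2, -0.05 without mutant 3, -0.28 without mutant 1 and -0.46 with sex in the fit. Genes of the cell cycle and DNA replication had 8 of 61 higher (13.1%, against 8.23% of all genes) and 1 lower (median 0.04). Cytosolic ribosomal protein genes had 1 of 77 higher and none lower, with a median of -0.11 that was 0.32 with sex in the fit and -0.38 without mutant 3, and oxidative phosphorylation genes had 1 of 56 lower and none higher, with a median of -0.09 that was 0.23 with sex in the fit and -0.25 without mutant 3.

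In promoter windows of RefSeq on GRCm38.p6, from 250 bases before to 50 after a gene's start, 10 of the 14 changed genes had an entry. Searched on both strands, the letters GAGAGAGA were in none of the 10 windows and in 3.93% of all 32851 windows, and the letters TNAAGTG were in none of the 10 and in 11.5% of all windows.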

How the data were processed

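RNA from embryonic mouse hearts had been sequenced. The submitters' processing notes name Bowtie2, DESeq and mm10, and the study's methods name Bowtie and DESeq for this RNA-seq; library strandedness and the counting tool are not given in the sources used here. The deposited values, named RPKM by the authors and treated here as a score, equal a whole count times gene length times a library factor. They were turned back into counts with the group average counts (expected counts) that the authors deposited beside their comparisons. Over the 17827 genes with a count, the largest distance of a recovered count from a whole number was 5.24e-10. Columns of the authors' own fold changes and p-values were not used. RPKM was then recomputed from counts and from gene lengths recovered with them, whose scale was set with exonic lengths of GENCODE vM21.

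Genes with a mean of at least 0.5 RPKM over the 6 libraries were tested with edgeR 4.0.16 (TMM scaling, quasi-likelihood test, no covariate). Calls needed an adjusted p (Benjamini-Hochberg) no higher than 0.05 and a change of at least 1.5-fold, and SE is the log2 fold change divided by the square root of F. DESeq2, limma, other filters and scalings, sex as a covariate, a replicate block and leaving out hearts were alternatives. The fit without both control 1 and mutant 3 was chosen after seeing the data. The test was tried on simulated counts with known changes. Depth was 11994148 to 16771200 counts per heart.

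The members and gene lists were chosen with earlier results of these data known. Genes named are those called, the 10 of lowest p not called in each direction, the 4 of lowest p and the most abundant of each described list, and the genes in the study's text; a few others were named for their role after their values were seen. Some genes that the rule selects, 1 of the 14 called genes among them, are not reported here, and their points were left out of the plots. Positions are those of GENCODE vM21 on GRCm38, in which 19142 genes were found.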

Additional observations from a re-analysis of the deposited data

Results flagged for a closer look

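*Hbb-b1*, adult beta globin, had opposite signs at E11.5 and E12.5 with no overlap of the groups at either, and the test of the difference had a low unadjusted p but did not pass after adjustment. At E11.5 it stood at 76.6, 40.7 and 79.9 CPM in control and 180, 112 and 98.9 CPM in mutant hearts (log2 fold change 0.99, adjusted p = 0.252, edgeR). At E12.5 it stood at 279, 238 and 297 CPM in control and 201, 138 and 99.8 CPM in mutant hearts (log2 fold change -0.89, adjusted p = 0.0267, edgeR). The difference of the log2 fold changes was -1.89 (SE 0.41, unadjusted p = 0.000496, adjusted p = 0.304, edgeR). Its reads may be shared with near-identical globin copies. With 3 hearts in each group, no test for a single outlying heart was made.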

How the results depend on the processing

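Against 14 changed genes, 73 were called without a filter on low counts, 6 at a mean RPKM of at least 5, 27 and 16 by limma on log2(RPKM + 0.5) and log2(RPKM + 0.1), 248 by DESeq2, 221 with all 12 libraries in one fit, 29 with sex as a covariate, 14 with median-ratio scaling and 14 with no fold threshold. Leaving out 1 heart gave 0 to 15 genes, and leaving out both control 1 and mutant 3 gave 0, with 1458 at an unadjusted p under 0.05. With a replicate block 73 genes were called, all 14 among them. Same-numbered hearts deviated together with correlations of -0.03, 0.43 and 0.29, and differently numbered ones with correlations from -0.49 to 0.24. Whether the numbers pair the hearts was not tested, and the labels do not say. For the difference between stages, DESeq2 called 43 genes, edgeR called 0 in the analysis reported, and leaving out 1 heart gave 0 to 10. Signs turned in the fit with sex as a covariate, which compares mutant 3 alone with the controls, for genes past the test or beyond their SE. These were *Ubn2* at -0.16, *Slc4a1* at -0.29, *Tcap* at 0.15, *Anxa2* at 0.043 and *Fxyd1* at 0.20. The causes of these shifts were not tested. Depth limits values near 1 count a heart, such as *Cd52* in mutants.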

Other observations

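Some genes were abundant mainly in 1 heart. *Prap1* stood at 64.0 CPM in control 3 and at most 0.646 CPM in the other 5 hearts, and *Guca2b* reached 20.9 CPM in control 3. *Gabrp* reached 25.4 CPM, *Tac2* 21.8 CPM, *Alx4* 17.5 CPM and *Gdf10* 12.1 CPM in control 1. *Afp*, alpha-fetoprotein of liver and yolk sac, stood at 20.6 CPM in control 1 and 50.1 CPM in mutant 1.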
